A study of Mus musculus with 8 samples.

Results

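Collagen chain genes encode the polypeptides that assemble into the collagen triple helix. They were chosen here by symbol, as every probe set whose platform annotation held 1 gene symbol of the form Col, number, a, number. This gave 46 probe sets of 44 genes, out of 21789 probe sets of 19938 genes with 1 symbol on the array, and the probe set with the highest mean was kept for each gene. Only Col6a5 and Col6a6 had 2 probe sets. The chains fell into 11 fibrillar, 6 basement membrane (type IV) and 27 other chains, and all 44 symbols were also found in the RefSeq gene table. No brightness filter was applied to them, but 5 genes (Col4a6, Col5a2, Col10a1, Col19a1 and Col28a1) had a mean log2 level under 5.63, the level below which the dimmest 40% of all probe sets lay. Just below that line stood Col5a2, with a mean of 5.59, and just above it Col4a5, with 5.73.

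RNA came from bilateral thalamic tissue of 8 male C57BL/6 mice, an inbred strain, that were 6 weeks old at entry, and each mouse was measured on an Affymetrix whole-transcript array. The 4 groups held 2 mice each. The acupoint group received MPTP and hand needling at the acupuncture points GB34 and LR3 on leg and foot, and the non-acupoint group received MPTP and the same needling at both sides of the hips, each in 14 sessions 48 hr apart. The MPTP group received the toxin without needling, and the control group received saline injections without needling. MPTP was injected into the peritoneum at 20 mg/kg every 24 hr for 4 weeks in the 3 groups that had it. The toxin kills dopaminergic neurons and serves as a model of parkinsonism. The tissue measured is therefore not the one that holds the cell bodies it is known to kill. All values below are log2 levels, and a difference of 1 is a 2-fold difference.

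Fibrillar collagens form the banded fibrils of connective tissue, and in brain they are found mostly in the meninges, the choroid plexus stroma and the walls of larger vessels. Type IV collagens form the sheet-like network of basement membranes, which in brain wrap the capillaries and line the surface under the meninges. The other chains include short-chain network formers, chains that bind to the surface of fibrils (FACIT collagens), the beaded filaments of type VI, anchoring fibrils, multiplexins and chains that span the cell membrane, some of them made by neurons.

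Col8a1 had the widest difference between groups of the collagen genes, and Col8a2 encodes its partner chain in type VIII collagen, so the stretches upstream of their starts are given here. Both are the 250 bases before the annotated start, from RefSeq, build GRCm38.p6, written 5′ to 3′ on the gene's own strand, with capitals marking the GC box letters GGGCGG or their reverse complement CCGCCC. The Col8a1 window lies at chr16:57754738-57754987 on the minus strand, and the Col8a2 window at chr4:126286544-126286793 on the plus strand.
Col8a1: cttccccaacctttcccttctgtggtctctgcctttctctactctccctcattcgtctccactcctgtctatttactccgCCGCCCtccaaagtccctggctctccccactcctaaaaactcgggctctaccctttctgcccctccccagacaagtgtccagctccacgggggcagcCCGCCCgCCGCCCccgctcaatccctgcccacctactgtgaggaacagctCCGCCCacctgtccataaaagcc
Col8a2: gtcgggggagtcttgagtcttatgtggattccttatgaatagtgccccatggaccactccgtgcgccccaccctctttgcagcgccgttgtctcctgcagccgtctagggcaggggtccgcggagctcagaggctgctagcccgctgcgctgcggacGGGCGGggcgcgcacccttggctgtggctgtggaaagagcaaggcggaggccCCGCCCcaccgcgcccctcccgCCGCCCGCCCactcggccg
Each window held 4 matches, all of CCGCCC in Col8a1, while in Col8a2 GGGCGG matched at 1 place and CCGCCC at 3, with 2 of these sharing bases. Of the 44 genes, 35 had a promoter in the table, with 38 windows, of which 22 held a GC box on either strand, against 32.7% of all 32851 promoters. A CCAAT box (CCAAT or ATTGG) was found in 13 of the 38 windows, against 33.8% of all promoters, and a TATA box (TATAAA or TTTATA) in 5 of 38, against 12.4%. Neither of the type VIII windows held a CCAAT or TATA match. A match of letters is a description and not a binding site. The genes for the type IV chains Col4a1 and Col4a2 share a head-to-head arrangement on chromosome 8, with annotated starts 21 bases apart on opposite strands.

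Median log2 levels of the 8 arrays lay between 6.18 and 6.29. The arrays of MPTP mouse 1 and of mouse 1 of the non-acupoint group differed most from the others. Their arrays correlated at 0.987 with each other and at 0.952 to 0.969 with the other 6, which correlated at 0.984 to 0.991 among themselves. Cytosolic ribosome genes (10 matched of 14 listed) had a mean level of 10.29 in MPTP mouse 1 and 10.36 in non-acupoint mouse 1, and 10.71 to 10.97 on the other 6 arrays. These levels do not measure RNA integrity, and the RNA quality of the 2 arrays that differed most was not tested. The main collagen results are given with and without these 2 arrays. The 6 arrays left hold 1 mouse each of the MPTP and non-acupoint groups, so their values are given without p-values. To look at the tissue taken, 10 marker genes of thalamic projection neurons were read, none of them under the brightness line. Their mean level was 10.32 and 10.30 in acupoint mice, 10.24 and 10.07 in non-acupoint mice, 10.06 and 10.01 in MPTP mice and 9.31 and 9.41 in control mice. Markers of dopaminergic neurons, which the thalamus is not known to hold in number, had mean levels of 6.93 and 6.86 in acupoint, 7.34 and 7.54 in non-acupoint, 7.17 and 8.22 in MPTP and 8.74 and 8.58 in control mice. In MPTP against control 9 of the 10 thalamic markers stood higher (median 0.82, background 43.0%) and 1 lower. All 8 dopaminergic markers stood lower there (median -0.71, background 57.0%). Whether the tissue taken differed between the groups was not tested, and such a difference cannot be told apart from treatment here. Over all 23410 annotated probe sets, limma with Benjamini-Hochberg adjustment called 0 in MPTP against control, where 1299 had an unadjusted p under 0.05. It called 0 (399 unadjusted) for acupoint and 8 (486 unadjusted) for non-acupoint mice when set against MPTP mice, and 2 (502 unadjusted) between the needled groups. With 2 arrays a group the number of arrays limits the precision, and the p-values set a difference against the spread between mice of the same group, pooled over the 4 groups and moderated across probe sets.

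The range over the 8 arrays had a median of 0.58 over the 44 genes, close to the 0.59 over all tested probe sets, and ran between 0.32 and 1.68. The widest was that of Col8a1, wider than the range of 97.6% of tested probe sets, followed by Col9a3 with 1.06, Col8a2 with 0.95, Col9a2 with 0.90 and Col6a5 with 0.87. Averaged over the 44 genes, the deviation from the 8-array mean was 0.08 and -0.04 in acupoint mice, -0.13 and -0.12 in non-acupoint mice, -0.19 and 0.15 in MPTP mice, and 0.07 and 0.19 in control mice. The MPTP mice were therefore on opposite sides, with MPTP mouse 1 the lowest of all arrays and MPTP mouse 2 close to the control mice. MPTP mouse 1 was the lowest array for 24 of the 44 genes (background 21.4% of tested probe sets), and control mouse 2 was the highest for 23 (background 16.1%). The control mean was the highest of the 4 group means for 32 genes (background 39.8%), and the non-acupoint mean was the lowest for 25 (background 27.6%).

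**Figure D1:**
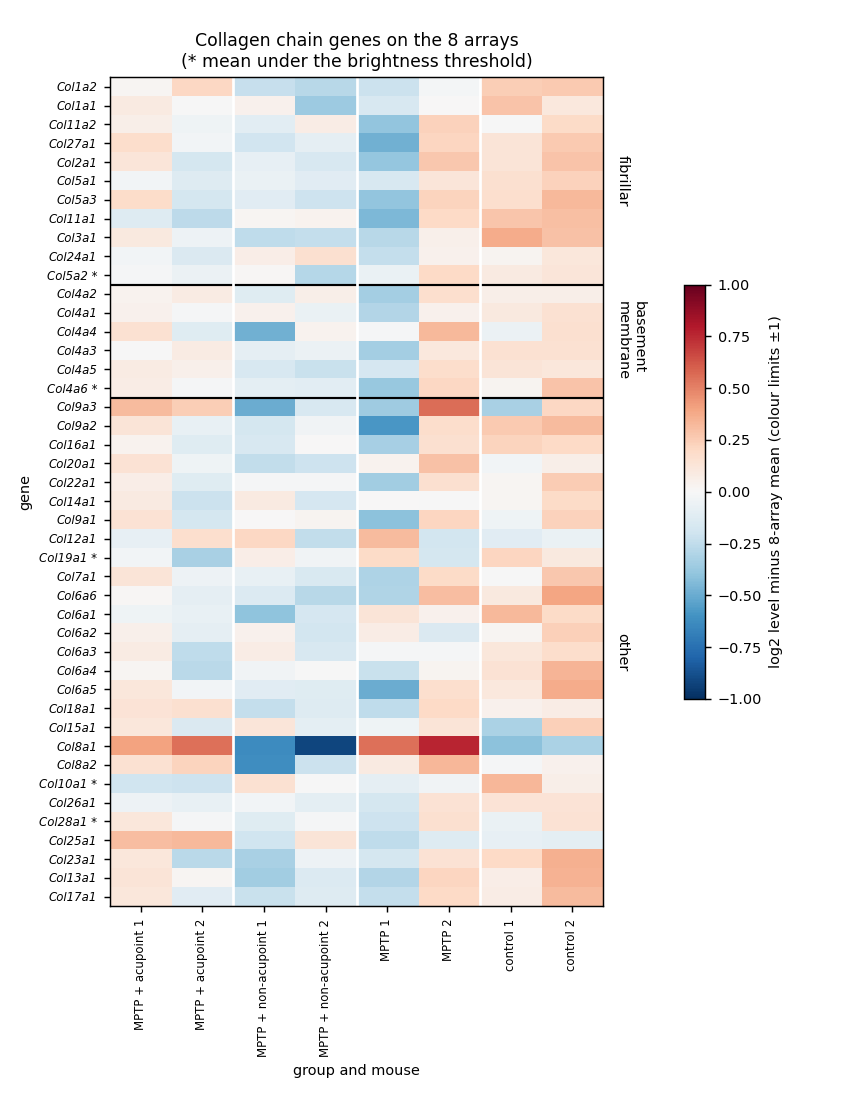
Deviation of each collagen chain gene (rows, grouped by class) from its own mean over 8 arrays (columns, group and mouse), in log2 units and with colour limits at ±1. Most rows are pale, with Col8a1, Col9a3 and Col8a2 among the exceptions, the MPTP mouse 1 column is low for most genes, and the Col8a1 row is high in the acupoint and MPTP mice and low in the non-acupoint and control mice.

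MPTP against control, the comparison that addresses the toxin, put most collagen genes slightly lower. In MPTP mice 37 of the 44 genes stood lower than in control mice, with a median change of -0.19, while 57.0% of all tested probe sets stood lower and 43.0% higher, with a median of -0.05. The fibrillar chains stood lower in 11 of 11 genes (median -0.28), the type IV chains in 5 of 6 (median -0.19) and the other chains in 21 of 27 (median -0.16). No collagen gene passed the adjusted p of 0.05 (background 0.0%), and at an unadjusted p under 0.05 there were 2 lower (background 2.7%) and 1 higher (background 2.85%). The 2 groups did not overlap in 16 genes that were lower in MPTP mice (background 22.8%) and in 2 that were higher (background 15.2%). In bulk tissue, fewer cells of a type and less RNA per cell cannot be told apart. The shift rested on MPTP mouse 1. Without it and non-acupoint mouse 1 the median was -0.01, with 22 genes lower and 22 higher, and without MPTP mouse 2 instead it was -0.38. The fibrillar median was -0.03 without these 2 arrays and -0.49 without MPTP mouse 2.

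Among the fibrillar chains, those of types I and III form the main fibrils of fibroblasts. Col1a2 had 7.01 and 7.21 in MPTP mice, against 7.48 and 7.49 in control mice, with 7.25 and 7.43 in acupoint and 7.00 and 6.95 in non-acupoint mice. Its MPTP and control mice did not overlap, and the non-acupoint mice lay with the lower of the MPTP mice. The change was -0.37 ± 0.16 (SE) in MPTP against control, with an unadjusted p of 0.0331 and an adjusted p of 0.737. Col3a1 had 5.94 and 6.27 in MPTP mice, against 6.59 and 6.51 in control mice, with 6.32 and 6.17 in acupoint and 5.96 and 5.98 in non-acupoint mice. The control mice were the highest of the 8, and the change was -0.44 (unadjusted p 0.0237, adjusted p 0.737). Without the 2 arrays that stood apart, and so with only MPTP mouse 2 in that group, the changes were -0.27 for Col1a2 and -0.28 for Col3a1. Col1a1, the partner chain of Col1a2, had 7.04 and 6.95 in acupoint, 6.99 and 6.59 in non-acupoint, 6.79 and 6.95 in MPTP and 7.24 and 7.06 in control mice. Here too both control mice stood above both MPTP mice, and the change in MPTP against control was -0.28 (unadjusted p 0.159).

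The minor fibrillar chains of types V and XI set the width of fibrils, and type XI and type II are otherwise known from cartilage. Col11a1 had 6.21 and 6.08 in acupoint, 6.36 and 6.37 in non-acupoint, 5.89 and 6.54 in MPTP and 6.62 and 6.63 in control mice. Both control mice were above all others, but the MPTP mice were far apart, and the change of -0.41 had an unadjusted p of 0.0942 and was -0.089 in the 6 arrays. The other fibrillar chains in MPTP against control stood at -0.33 for Col27a1, -0.33 for Col5a3, -0.26 for Col2a1, -0.22 for Col5a1, -0.18 for Col11a2, -0.17 for Col24a1 and -0.04 for the dim Col5a2. These values rested on MPTP mouse 1. In the 6 arrays they were 0.021 for Col27a1, -0.023 for Col5a3, 0.068 for Col2a1, -0.078 for Col5a1, 0.14 for Col11a2, -0.028 for Col24a1 and 0.096 for Col5a2, and 7 of the 11 fibrillar chains stood lower.

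The type IV chains of the capillary basement membrane are Col4a1 and Col4a2, which make up its common network. Col4a1 had 6.81 and 6.76 in acupoint, 6.81 and 6.71 in non-acupoint, 6.48 and 6.81 in MPTP and 6.87 and 6.93 in control mice. Col4a2 had 6.97 and 7.01 in acupoint, 6.81 and 6.99 in non-acupoint, 6.60 and 7.11 in MPTP and 6.99 and 6.99 in control mice. For both chains MPTP mouse 1 was the lowest array, and for Col4a2 mouse 1 of the non-acupoint group was the next lowest. The changes in MPTP against control were -0.25 for Col4a1 (unadjusted p 0.148) and -0.14 for Col4a2 (unadjusted p 0.48), and -0.082 and 0.11 for these chains without the 2 arrays that stood apart. Of the chains known from the basement membranes of kidney and other epithelia, Col4a3 stood at -0.27, Col4a5 at -0.12, the dim Col4a6 at -0.24 and Col4a4 at 0.10 in the same comparison. Col4a3 stood in the 6 arrays at -0.048, Col4a5 at 0.049, Col4a6 at 0.052 and Col4a4 at 0.27. Taken over the 6 type IV chains, the median in MPTP against control was 0.05 without the 2 arrays that stood apart and -0.41 without MPTP mouse 2.

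Col8a1 stood higher in MPTP than in control mice, against the direction of most chains. It encodes a short-chain collagen that forms hexagonal networks in the membrane behind the cornea and is made by vascular cells. It had 7.02 and 7.16 in acupoint mice, 5.99 and 5.69 in non-acupoint mice, 7.17 and 7.37 in MPTP mice and 6.20 and 6.30 in control mice. The acupoint and MPTP mice were high and the non-acupoint and control mice low, and the lowest value of the high groups, 7.02, was above the highest of the low groups, 6.30. In MPTP against control Col8a1 stood higher by 1.02 ± 0.16 (SE, 2.03-fold, unadjusted p 0.000384, adjusted p 0.359). In non-acupoint against MPTP it stood lower, with a change of -1.43 (2.69-fold, unadjusted p 4.55e-05, adjusted p 0.0899). In acupoint against non-acupoint it stood higher by 1.25 (2.38-fold, unadjusted p 0.000108, adjusted p 0.195), while acupoint and MPTP mice differed by -0.18. The test of any difference among the 4 groups gave it an adjusted p of 0.175. In that test 0 of the 44 collagen genes passed the adjusted p (background 0.0214%), and 5 of them, Col8a1, Col8a2, Col1a2, Col6a1 and Col3a1, had an unadjusted p under 0.05 (background 3.83%). No comparison of Col8a1 passed over all probe sets, although the adjusted p in non-acupoint against MPTP was 0.0394 when the model held a term for the 2 arrays that stood apart, and lay between 0.0394 and 1.00 over 20 alternatives. In the 6 arrays left without those 2, Col8a1 stood at 1.12 in MPTP against control, -1.68 in non-acupoint against MPTP and 1.40 in acupoint against non-acupoint, so the differences were no smaller.

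Col8a2, the partner chain of Col8a1 in type VIII networks, had 6.65 and 6.72 in acupoint mice, 5.88 and 6.28 in non-acupoint mice, 6.59 and 6.83 in MPTP mice and 6.49 and 6.54 in control mice. Its non-acupoint mice were the lowest, but its control mice lay close to the MPTP mice, unlike those of Col8a1. The change was -0.63 ± 0.18 (SE) in non-acupoint against MPTP (unadjusted p 0.00877, adjusted p 1.00) and 0.61 in acupoint against non-acupoint (unadjusted p 0.0104, adjusted p 0.943), against 0.19 in MPTP against control. In the 6 arrays these were -0.55, 0.40 and 0.31 for Col8a2. Col10a1, another short-chain network former and a chain of growth cartilage, was under the brightness line. It stood at -0.25 in MPTP against control, at -0.14 in acupoint and 0.13 in non-acupoint mice when each was set against MPTP mice, and at -0.27 in acupoint against non-acupoint.

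**Figure D2:**
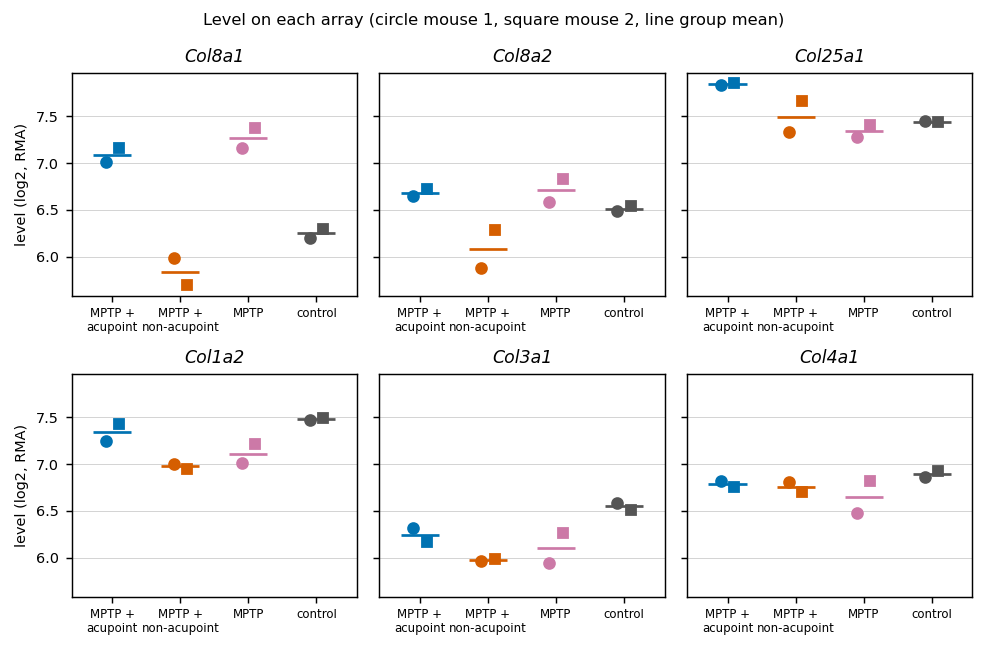
Log2 level on each array (circle for mouse 1, square for mouse 2) with the group mean (line) for Col8a1, Col8a2, Col25a1, Col1a2, Col3a1 and Col4a1, on 1 vertical scale and by group along the horizontal axis. Col8a1 is high in acupoint and MPTP mice and low in non-acupoint and control mice, and Col1a2, Col3a1 and Col4a1 have their highest group mean in control mice.

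Markers of the choroid plexus, the epithelium that makes cerebrospinal fluid and lies beside the thalamus, had the same group order as Col8a1. The mean level of 12 such genes, of 14 listed, was 7.92 and 8.49 in acupoint mice, 5.51 and 5.56 in non-acupoint mice, 8.53 and 8.48 in MPTP mice and 6.58 and 6.68 in control mice. All 12 stood higher in MPTP than in control mice (background 43.0%), with a median of 1.75 and 0 past the adjusted p (background 0.0%). All 12 stood lower in non-acupoint than in MPTP mice (background 52.4%), with a median of -2.59 and 4 past the adjusted p (background 0.0342%). In acupoint against non-acupoint all 12 stood higher (background 51.4%), with a median of 2.18 and 2 past the adjusted p (background 0.00854%). In acupoint against MPTP the median was -0.27. The list was chosen with earlier results of these data known. Kcnj13, a potassium channel of that epithelium, had 9.40 and 10.02 in acupoint, 4.91 and 5.30 in non-acupoint, 11.07 and 10.13 in MPTP and 7.50 and 7.56 in control mice. It fell in non-acupoint against MPTP (change -5.49, adjusted p 0.0153) and rose in acupoint against non-acupoint (change 4.60, adjusted p 0.0418). Ttr, the thyroid hormone carrier made there, had 13.36 and 13.53 in acupoint, 5.72 and 8.39 in non-acupoint, 12.91 and 13.65 in MPTP and 12.05 and 12.27 in control mice. The list therefore moved with Col8a1, and with the non-acupoint levels of Col8a2, and its part in these differences was not tested.

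Acupoint against MPTP, the comparison that addresses needling at the points, gave small differences in either direction. In acupoint mice 26 of the 44 genes stood higher and 18 lower than in MPTP mice (median 0.04, and -0.02 over all tested probe sets, of which 46.6% stood higher and 53.4% lower). The medians were 0.09 for fibrillar, 0.13 for type IV and -0.02 for the other chains. None passed the adjusted p (background 0.0%), and at an unadjusted p under 0.05 there was 1 higher (background 0.679%) and 0 lower (background 1.03%). The groups did not overlap in 2 genes that were higher (background 12.4%) and 3 that were lower (background 15.2%). The direction depended on which MPTP mouse was counted. Without the 2 arrays that stood apart 39 of the 44 genes were lower in acupoint mice (median -0.15), and without MPTP mouse 2 the median was 0.26.

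The gene with the smallest p there was Col25a1, which encodes a neuronal collagen that spans the membrane and sheds a fragment found in amyloid plaques. It had 7.84 and 7.85 in acupoint mice and 7.28 and 7.41 in MPTP mice, with 7.34 and 7.66 in non-acupoint and 7.45 and 7.44 in control mice. The acupoint mice were above all other arrays, by 0.50 ± 0.15 (SE, 1.42-fold) over MPTP mice (unadjusted p 0.0129, adjusted p 0.942), and by 0.44 in the 6 arrays. Next came Col1a2, with a change of 0.23, and Col18a1, with 0.18. Col18a1 encodes a multiplexin of vascular basement membranes whose end fragment is endostatin, and had 6.62 and 6.64 in acupoint, 6.25 and 6.36 in non-acupoint, 6.23 and 6.68 in MPTP and 6.53 and 6.56 in control mice. Its acupoint mice stood above both non-acupoint mice, by 0.33 on average (unadjusted p 0.0967). On the lower side, the dim Col19a1, a chain known from mouse hippocampal interneurons, had 5.52 and 5.22 in acupoint, 5.62 and 5.51 in non-acupoint, 5.74 and 5.38 in MPTP and 5.76 and 5.64 in control mice, with a change of -0.19 in acupoint against MPTP.

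Non-acupoint against MPTP, in which the needles were placed elsewhere, uses the same MPTP arrays as the comparison above. In non-acupoint mice 29 of the 44 genes stood lower (median -0.05, and -0.01 over all tested probe sets, of which 52.4% stood lower and 47.6% higher). The medians were -0.07 for fibrillar, 0.02 for type IV and -0.04 for the other chains. None passed the adjusted p (background 0.0342%), and at an unadjusted p under 0.05 there were 4 lower (background 1.67%) and 0 higher (background 0.41%). The groups did not overlap in 5 genes that were lower (background 10.6%) and 2 that were higher (background 6.52%). Without the 2 arrays that stood apart 40 of the 44 genes were lower and the median was -0.23.

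The 4 lower genes were Col8a1, Col8a2, Col6a1 and Col20a1. Col6a1, a chain of the beaded filaments around cells, had 6.15 and 6.39 in non-acupoint mice and 6.68 and 6.60 in MPTP mice, with 6.51 and 6.48 in acupoint and 6.88 and 6.74 in control mice. The control mice were the highest and a non-acupoint mouse the lowest, and the change was -0.37 (unadjusted p 0.0347). Its partner chains Col6a2 and Col6a3 stood at -0.04 and -0.03 in the same comparison. Col20a1, a FACIT chain, had 6.19 and 6.23 in non-acupoint mice and 6.47 and 6.73 in MPTP mice, with 6.58 and 6.39 in acupoint and 6.41 and 6.49 in control mice. Its non-acupoint mice were below the 6 others, and the change was -0.39 (unadjusted p 0.0357). In the 6 arrays, with 1 mouse against 1, Col6a1 stood at -0.21 and Col20a1 at -0.50. On the higher side stood Col24a1, with a change of 0.21, and Col25a1, with 0.16.

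Acupoint against non-acupoint compares the needling sites directly and includes neither MPTP mouse. In acupoint mice 34 of the 44 genes stood higher (median 0.11), while 51.4% of all tested probe sets stood higher and 48.6% lower (median 0.01). The medians were 0.10 for fibrillar, 0.12 for type IV and 0.12 for the other chains, and 6 of 6 type IV chains stood higher. None passed the adjusted p (background 0.00854%), and at an unadjusted p under 0.05 there were 3 higher (background 1.27%), namely Col8a1, Col8a2 and Col1a2, and 0 lower (background 0.876%). The groups did not overlap in 18 genes that were higher (background 14.3%) and 3 that were lower (background 17.1%). Without the 2 arrays that stood apart 33 of 44 were higher and the median was 0.12. Col1a2 stood higher by 0.36 (unadjusted p 0.0359), Col3a1 by 0.27 and Col4a5 by 0.26. On the lower side were Col10a1 at -0.27, Col11a1 at -0.22 and Col24a1 at -0.20.

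**Figure D3:**
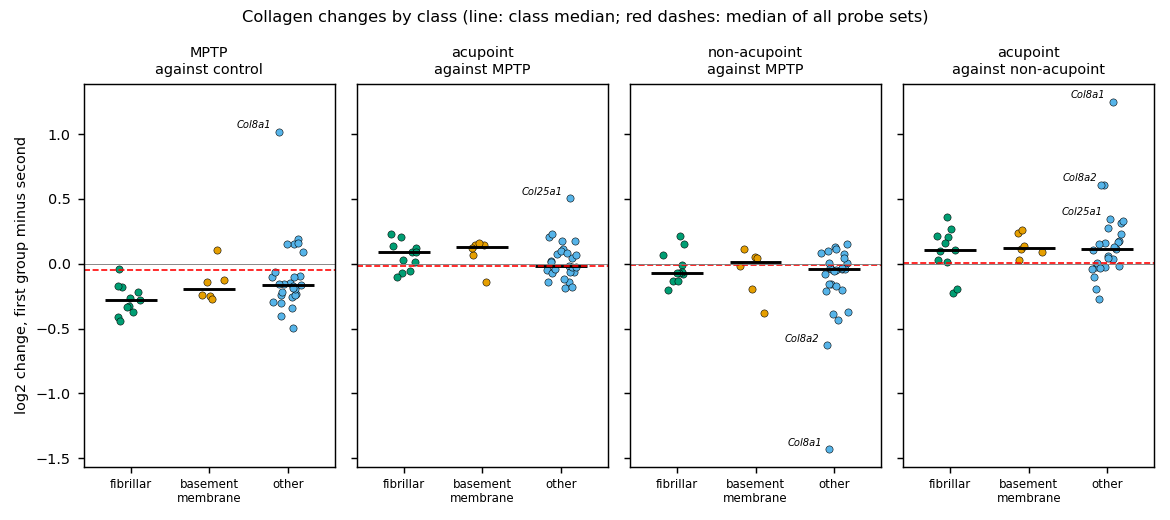
Log2 change of each collagen chain gene (points) by class (horizontal axis) in the 4 comparisons, with the class median as a black line and the median of all tested probe sets as red dashes. The fibrillar points lie below 0 in MPTP against control, and Col8a1 is the farthest from 0 in every panel but that of acupoint against MPTP.

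The FACIT chains sit on the surface of fibrils, and those of type IX are best known from cartilage. Col9a3 had 7.62 and 7.56 in acupoint, 6.81 and 7.15 in non-acupoint, 6.95 and 7.87 in MPTP and 6.99 and 7.52 in control mice. Only the acupoint mice were close to each other, above both non-acupoint mice, and the change of 0.61 in acupoint against non-acupoint had an unadjusted p of 0.0989. Col9a2 stood at -0.49 in MPTP against control (unadjusted p 0.0837) and Col9a1 at -0.19, and in the 6 arrays they stood at -0.11 and 0.12. Of the 9 FACIT chains, 6 stood lower and 3 higher in MPTP against control. The 3 higher were Col9a3 at 0.16, Col20a1 at 0.15 and Col12a1 at 0.15. The other lower chains were Col16a1 at -0.30, Col22a1 at -0.23, the dim Col19a1 at -0.15 and Col14a1 at -0.10. Without the 2 arrays that stood apart, Col9a3 stood at 0.62, Col20a1 at 0.28 and Col12a1 at -0.10. Col16a1 then stood at -0.055, Col22a1 at 0.025, Col19a1 at -0.33 and Col14a1 at -0.10. Of the type VI chains, all 6 stood lower in MPTP than in control mice. Their changes were -0.40 for Col6a5, -0.34 for Col6a4, -0.24 for Col6a6, -0.17 for Col6a1, -0.16 for Col6a2 and -0.16 for Col6a3. In the 6 arrays Col6a5 stood at -0.070 and Col6a6 at 0.064. The others stayed lower there, with Col6a2 at -0.27, Col6a1 at -0.21, Col6a4 at -0.21 and Col6a3 at -0.16. Over all 8 arrays the membrane-spanning chains stood lower in 4 of 4, with Col23a1 at -0.30, Col13a1 at -0.24, Col17a1 at -0.21 and Col25a1 at -0.10. Only 2 of these 4 stood lower in the 6 arrays, with Col23a1 at -0.13 and Col25a1 at -0.038, while Col13a1 stood at 0.012 and Col17a1 at 0.0070. Col7a1, the anchoring fibril chain of skin, stood at -0.19, Col26a1 at -0.15, the dim Col28a1 at -0.07, Col18a1 at -0.09 and the multiplexin Col15a1 at 0.09. Col7a1 stood in the 6 arrays at 0.062, Col26a1 at 0.0087, Col28a1 at 0.12, Col18a1 at 0.13 and Col15a1 at 0.17. None of the genes in these groups other than Col6a1, Col20a1 and Col25a1 had an unadjusted p under 0.05 in any of the 4 comparisons.

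Meningeal fibroblasts are a main source of fibrillar collagen at the brain surface, and their markers moved with part of the pattern. The mean level of 12 such genes was 6.59 and 6.85 in acupoint mice, 5.90 and 6.13 in non-acupoint mice, 6.61 and 6.54 in MPTP mice and 7.10 and 6.92 in control mice. The control mice were the highest and the non-acupoint mice the lowest, the same order as Col1a2 and Col3a1 by group mean. The list medians were -0.57 in MPTP against control, 0.16 in acupoint against MPTP, -0.33 in non-acupoint against MPTP, and 0.65 between acupoint and non-acupoint mice. In MPTP against control 10 of the 12 stood lower (background 57.0%) and 2 higher (background 43.0%), by up to 0.92. At an unadjusted p under 0.05 there were 7 lower (background 2.7%) and 2 higher (background 2.85%). Of the 12 genes, 2 were under the brightness line. Slc6a13, a transporter of these cells, had 6.49 and 6.72 in acupoint, 6.06 and 6.49 in non-acupoint, 6.37 and 6.22 in MPTP and 7.50 and 7.35 in control mice. Igf2, a growth factor made in the meninges and the choroid plexus, had 8.45 and 8.60 in acupoint, 7.44 and 7.17 in non-acupoint, 9.10 and 8.90 in MPTP and 8.47 and 8.40 in control mice. It fell in non-acupoint against MPTP (change -1.69, adjusted p 0.0387), the only list member to pass (background 0.0342%). The part of these cells in the collagen differences was not tested.

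The small leucine-rich proteoglycans, which bind collagen fibrils and of which Dcn, Lum, Ogn and Fmod also stand in the meningeal list, had mean levels of 5.86 and 6.19 in acupoint, 5.55 and 5.72 in non-acupoint, 6.00 and 5.89 in MPTP and 6.42 and 6.27 in control mice. Of these 8 genes, 4 were under the brightness line. In MPTP against control 7 of the 8 stood lower (median -0.47, background 57.0%), with Ogn at -1.13 (unadjusted p 0.00203, adjusted p 0.528) and Fmod at -0.71 (unadjusted p 0.000791, adjusted p 0.386). The 1 that stood higher did so by 0.73, with an unadjusted p under 0.05. Lum stood higher in acupoint than in MPTP mice by 1.19 (unadjusted p 0.0245), while Omd stood at -0.59. In acupoint against non-acupoint 5 of 8 were higher (median 0.48, background 51.4%), Ogn by 1.11. No member passed the adjusted p in any of the 4 comparisons.

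By list mean, vascular cell markers varied less between groups than the meningeal list did. Single genes did not all stay close to 0. In MPTP against control the endothelial changes ran from -0.69 to 0.98 and the mural ones from -0.50 to 0.28, against -1.17 to 0.92 in the meningeal list. The mean over 9 endothelial genes was 8.00 and 8.07 in acupoint, 8.27 and 8.09 in non-acupoint, 8.32 and 7.83 in MPTP and 7.92 and 7.86 in control mice, highest in MPTP mouse 1, where the collagens were lowest. Within this list Cldn5, a tight junction gene, had 8.07 and 8.28 in acupoint, 7.21 and 8.29 in non-acupoint, 6.89 and 7.96 in MPTP and 8.04 and 8.18 in control mice, low on the 2 arrays that stood apart. The mean over 10 mural cell genes was 7.20 and 7.24 in acupoint, 7.18 and 7.17 in non-acupoint, 7.35 and 7.17 in MPTP and 7.38 and 7.32 in control mice, and so was highest in control and lowest in non-acupoint mice by group mean, like many of the collagens. The part of mural cells in the collagen differences was not tested. Sparc, a collagen-binding matrix protein, was likewise low on those arrays, with 11.83 and 11.78 in acupoint, 11.39 and 11.87 in non-acupoint, 10.86 and 11.94 in MPTP and 12.05 and 12.02 in control mice.

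**Figure D4:**
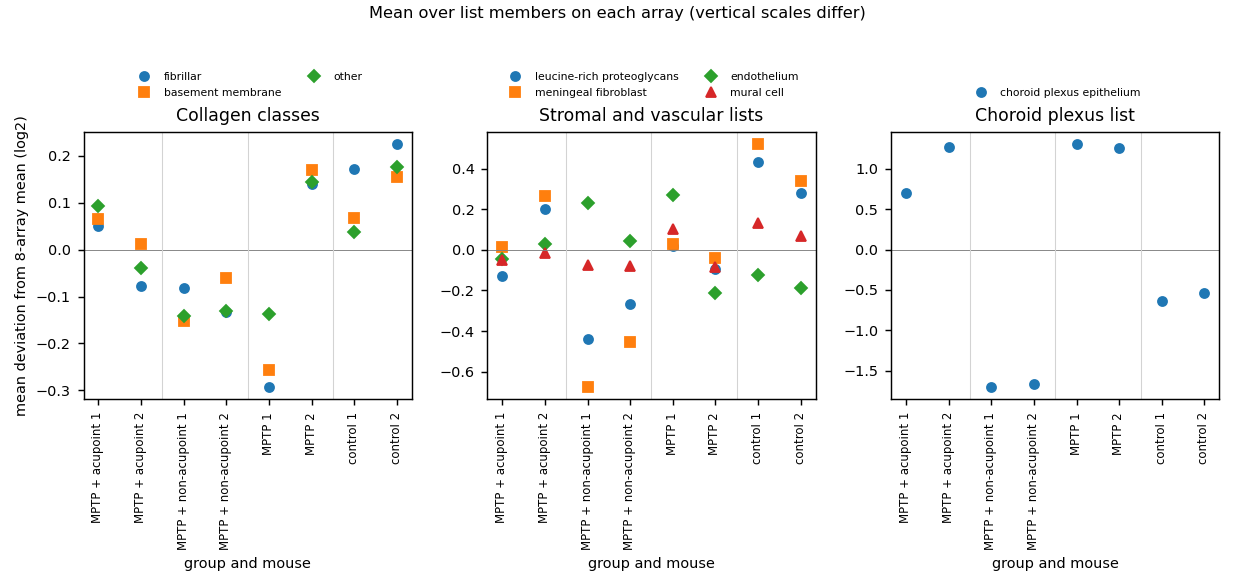
Mean deviation from the 8-array mean (log2 units) over the members of each list, on each array (horizontal axis, group and mouse), for the collagen classes, the stromal and vascular lists and the choroid plexus list. The 3 collagen classes are lowest or close to lowest in MPTP mouse 1, and the choroid plexus list lies above 0 in the acupoint and MPTP mice and below 0 in the non-acupoint and control mice.

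In MPTP against control, the genes whose products make, trim and degrade collagen gave medians nearer to 0 than the chains did. The chain median was -0.19 with all arrays counted and -0.01 without the 2 arrays that stood apart. The list medians are for all arrays only, so whether the contrast holds without those 2 was not tested. Of 19 biosynthesis enzymes and chaperones, 12 stood lower in MPTP than in control mice (median -0.12, background 57.0%). In acupoint against MPTP 12 stood higher (median 0.11, background 46.6%). Against MPTP mice, 10 stood lower in non-acupoint mice (median -0.01, background 52.4%). Between acupoint and non-acupoint mice, 9 stood higher in the former (median -0.00, background 51.4%). None of the 19 had an unadjusted p under 0.05 in these 4 comparisons. Serpinh1, the chaperone that holds folded procollagen, had 6.47 and 6.42 in acupoint, 5.82 and 6.42 in non-acupoint, 6.01 and 6.42 in MPTP and 6.62 and 6.58 in control mice, again low on the 2 arrays that stood apart. Plod3, a lysyl hydroxylase, stood at -0.39 in MPTP against control and P4ha2, a prolyl hydroxylase, at 0.28 in acupoint against MPTP.

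Among 12 genes of propeptide cleavage and crosslinking the medians were 0.06 in MPTP against control, 0.03 in acupoint and -0.11 in non-acupoint mice when each was set against MPTP mice, and 0.14 between acupoint and non-acupoint mice. Pcolce, an enhancer of procollagen C-propeptide cleavage, had the smallest p of them. Its change was 0.46 in MPTP against control (unadjusted p 0.038), -1.19 in non-acupoint against MPTP (unadjusted p 0.000301, adjusted p 0.227) and 1.23 in acupoint against non-acupoint (unadjusted p 0.000244, adjusted p 0.357), in the same directions as Col8a1. Lox, a crosslinking oxidase, stood at -0.36 in MPTP against control (unadjusted p 0.0565). Of the 12 genes, 3 were under the brightness line.

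Of 10 genes of collagen breakdown and its inhibitors, 4 were under the brightness line. In MPTP against control 6 of the 10 stood lower (median -0.04, background 57.0%), with the inhibitor Timp3 at 0.38 (unadjusted p 0.0474) and Timp1 at -0.29. The collagenase Mmp8 stood at 0.21 in acupoint against MPTP, and Mmp2 at -0.36 in non-acupoint against MPTP. Of 9 collagen receptors, 2 of them under the brightness line, 5 stood higher in MPTP against control (median 0.04, background 43.0%). The integrin chain Itga2 stood at -0.35 in acupoint against MPTP (unadjusted p 0.0381). Among 15 partners of type IV collagen in basement membranes the medians were 0.05 in MPTP against control, -0.03 in acupoint and -0.05 in non-acupoint mice against MPTP mice, and 0.09 between acupoint and non-acupoint mice. The laminin chain Lamb1 stood higher in MPTP than in control mice by 0.84 (unadjusted p 0.000647, adjusted p 0.386), while the type IV median was -0.19 there. Nid2, which links laminin to type IV collagen, stood at -0.78 in non-acupoint against MPTP (unadjusted p 0.00264, adjusted p 0.958). No gene of the lists of biosynthesis, propeptide cleavage, breakdown, receptors and basement membrane partners passed the adjusted p in any of the 4 comparisons.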

How the data were processed

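The values the authors deposited are log2 levels of 35557 probe sets on 8 arrays. They come from RMA in Affymetrix Expression Console, per the submitters' processing notes, with versions not given in the sources used here. RMA draws arrays towards a common distribution and compresses differences of dim probe sets. Of the probe sets, 23410 had a platform annotation and were tested, with no brightness filter. In R 4.3.3, limma 3.58.1 fitted group means to all 8 arrays (4 residual and 3.01 prior degrees of freedom, median residual SD 0.193). All p-values are two-sided and carry a Benjamini-Hochberg adjustment over all tested probe sets, with a threshold of 0.05. The procedure was tested on simulated data. With 2 arrays on each side, 0.333 is the smallest two-sided p that exact permutation allows. Non-overlap means that all arrays of a group lie above those of the other.

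The members and the 22 gene lists were chosen with earlier results of these data known. By rule, all fibrillar, type IV and bright other chains were named, with the 3 higher and 3 lower of smallest p per comparison, and of other lists the 2 members of smallest p and Serpinh1, Sparc, Ttr, Kcnj13, Igf2, Slc6a13, Cldn5, Tcf7l2 and Th. Not all list members under the rule are printed. Titles number the mice within a group. Deviations of equally numbered mice correlated at 0.73 between the MPTP and non-acupoint groups and at -0.24 to 0.14 otherwise, so the numbers were not taken to pair mice.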

Additional observations from a re-analysis of the deposited data

How the results depend on the processing

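The medians of the 44 collagen genes depended on which MPTP mouse was counted. Without the 2 arrays that stood apart they were -0.0080 in MPTP against control, -0.15 in acupoint against MPTP and -0.23 in non-acupoint against MPTP. Leaving out each mouse in turn gave -0.38 to -0.0080, -0.15 to 0.26 and -0.24 to 0.083 in these comparisons, and 0.06 to 0.20 in acupoint against non-acupoint. With the mouse number as a replicate block the medians were -0.19, 0.04, -0.05 and 0.11. They could not move, because each group holds 1 mouse of each number. The numbers of probe sets past the adjusted p could move, and were 0, 0, 7 and 3, with 4 in the test over the 4 groups. Of 170 pairs of gene and comparison, 112 changed sign under at least 1 of up to 20 alternatives. Among the 11 with an unadjusted p under 0.05 the count was 0. These 11 were picked by p on these same arrays, and many alternatives leave the size of a change as it is. The 0 is therefore no support for them. Only Col8a1 passed the adjusted p under any alternative, in 1 comparison.

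Numbers of probe sets past the adjusted p, over all annotated probe sets, moved as follows, and the cause was not tested. Where a mouse is left out, the lone mouse of its group is assumed to vary like the other groups. In MPTP against control (0) there were 2 with an intensity trend, 2 with 1 probe set per gene, 2 with a term for the 2 arrays, and 0 to 1 without each mouse. In acupoint against MPTP (0) there was 1 in 6 arrays and 0 without each mouse. In non-acupoint against MPTP (8) there were 0 with unnamed probe sets, 0 with array weights, 0 with only the groups compared, 1 in 6 arrays, 19 with the term, and 0 to 7 without each mouse. In acupoint against non-acupoint (2) there were 0 with quantile normalization, cyclic loess, the brightness filter, unnamed probe sets or only the groups compared, 1 in 6 arrays, 5 with the term, and 0 to 2 without each mouse. In the test over the 4 groups (5) there were 0 with quantile normalization, the filter or unnamed probe sets, 3 with cyclic loess, 194 with array weights, 3 in 6 arrays, 30 with the term, and 0 to 4 without each mouse. With 2 mice a group and dim genes among the chains, differences of the size seen in most collagen genes could not be told from the spread between mice.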
